A study of Mus musculus with 6 samples.

Results

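The genes described here are 26 genes of GABA and glycine signalling, taken by symbol from the 43432 genes listed in each expression table. They comprise 9 subunits of the GABA-A receptor, 2 subunits of the GABA-B receptor, 5 genes for the synthesis, transport and breakdown of GABA, 5 genes for scaffold, adhesion and auxiliary proteins of inhibitory synapses, 2 chloride cotransporters and 3 subunits of the glycine receptor. Not every gene of these families is among them. The samples were primary neurons from the cortex of wild-type (WT) C57BL/6 mouse embryos at E16.5, with male and female embryos pooled, cultured for 7 days. All groups shared a silencing step at day 6 in vitro, an overnight block with 1 μM tetrodotoxin (TTX), which closes sodium channels, and 100 μM DL-AP5, which blocks NMDA receptors. The neurons then received 55 mM KCl, which depolarizes the membrane, over 2 h or 6 h, or none (0 h), with 2 replicate libraries in each of the 3 groups, so that the 0 h group was silenced but not depolarized. The comparisons ask how the messenger RNA of these genes differed after 2 h and after 6 h of depolarization.

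GABA and glycine are the main inhibitory transmitters of the nervous system, and both open chloride channels built of several subunits around a pore. GABA is made from glutamate, loaded into vesicles, held in check by uptake and breakdown, and read by GABA-A channels that scaffold proteins cluster opposite the release site, and by GABA-B receptors that act through G proteins. Whether an open chloride channel inhibits or excites depends on the chloride gradient, which cotransporters set and which changes direction as cortical neurons mature.

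The 6 libraries held 25959298 to 28573067 expected counts each. Levels are given as TPM, a unit of transcript abundance within a library. TPM values account for transcript length and can be compared between genes. Changes are given as log2 fold changes of normalized counts, which are expected counts divided by a size factor for each library. The 2 libraries at 2 h stood apart from each other along the GC content of the transcripts. Over the 26 genes, the log2 ratio of replicate 1 to replicate 2 had a Spearman correlation with GC content of -0.851 at 2 h, against -0.495 at 0 h and -0.570 at 6 h, a description over genes that share the same libraries. At 2 h, 8 of the 26 genes differed by more than 0.5 on the log2 scale between replicates, namely Gabrb2, Gabrg1, Gabra2, Gabra4, Gabrg3, Glrb, Glra3 and Slc12a2, with GC contents from 35.6% to 46.0%. At 0 h and at 6 h only Glra3, the gene with the lowest counts, did so. With the first and then the second 2 h library left out, the log2 fold change at 2 h against 0 h was -0.61 and 0.21 for Gabra2, -0.66 and 0.30 for Gabrg1, -0.66 and 0.020 for Gabrg3, -0.19 and 0.50 for Glrb, -0.29 and 0.26 for Slc12a2, and -1.57 and -0.93 for Glra3. Of these genes Glra3 kept its sign at 2 h, and the others changed sign with the library left out. Markers of the cell types that such cultures can hold were read in the same libraries. Pan-neuronal markers summed to 5339 to 5868 TPM over 8 genes, with Tubb3 from 666 to 1679 TPM. Markers of astrocytes and radial glia summed to 3929 to 5176 TPM over 12 genes, most of it from Fabp7, with 2709 to 3869 TPM. Within the same list Vim had 209 to 520 TPM and Gfap 13.8 to 30.9 TPM. Microglial markers were near 0 (summed over 8 genes, 4.2 to 10.6 TPM).

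**Figure D1:**
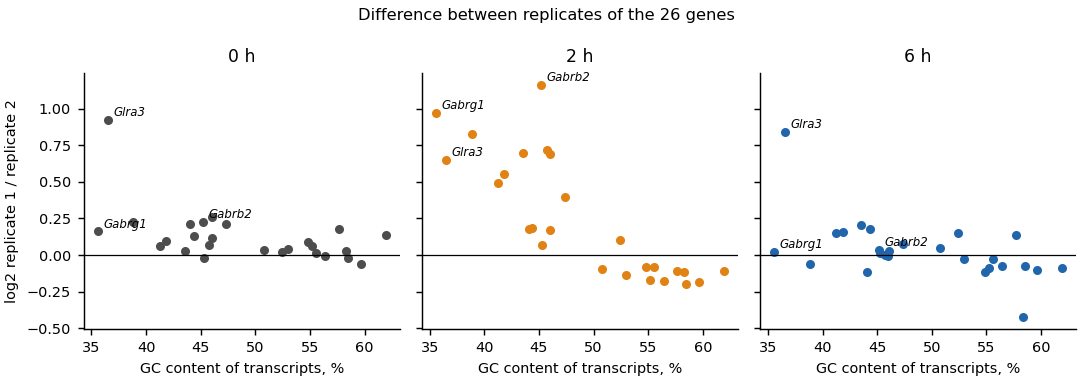
Difference between the replicates of each group for the 26 genes, with the GC content of the transcripts in % on the horizontal axis and the log2 ratio of the normalized count of replicate 1 to that of replicate 2 on the vertical axis, 1 panel per time point and 1 point per gene. The 2 h points fall from over 0.9 for Gabrg1 at a GC content of 35.6% to below 0 for genes over 55%, while most points at 0 h and 6 h lie near 0.

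More of the genes passed the test after 6 h than after 2 h. With the DESeq2 Wald test over all genes (adjusted p no higher than 0.05), 7 of the 26 genes were higher and 0 lower at 2 h than at 0 h, where 12.3% of all 16840 genes tested were higher and 14.2% lower. At 6 h, 13 were higher and 4 lower than at 0 h, against 23.7% and 21.7% of the 17277 genes tested. Between 6 h and 2 h, 10 were higher and 4 lower at 6 h, against 24.1% and 21.2% of 16404 genes. The count of 0 lower genes at 2 h was the same with edgeR. At an unadjusted p below 0.05 there was 1 lower gene with DESeq2, Gabrb1, whose adjusted p was 0.0513, and 2 with edgeR, Gabrb1 and Glra3. The one-sided count at 2 h depended on the setting. After correction for GC content 14 genes passed as higher and 0 as lower, and with a replicate block added 12 and 0. The log2 fold changes of Gabra2, Gabra4, Gabrb1, Gabrb2, Gabrg1 and Gabrg3 at 2 h moved with the 2 h library left out. They were -0.61, -0.33, -0.48, -0.91, -0.66 and -0.66 without the first, and 0.21, 0.38, -0.31, 0.25, 0.30 and 0.020 without the second. Library totals in place of the size factors left 2 higher and 1 lower, Gabrb1. Gabrb1 also passed as lower when genes under a mean count of 10 were removed. With library totals the counts were 9 higher and 6 lower at 6 h against 0 h, and 8 higher and 6 lower at 6 h against 2 h. The median log2 fold change of the 26 genes was 0.15 at 2 h and 0.44 at 6 h against 0 h, beside medians of 0.015 and 0.00044 over all genes tested. With library totals the medians of the 26 genes were -0.010 and 0.19, beside -0.15 and -0.25 over all genes. Changes of more than 2-fold were few. At 6 h only Gabra4, Gad1 and Gad2 passed with more than a 2-fold increase over 0 h (9.1% of genes tested did so upward and 10.2% downward), and no gene of the set did so at 2 h (3.62% and 5.94%). From 2 h to 6 h, Gabra4 and Gabrb1 rose more than 2-fold and Shisa7 fell more than 2-fold (10.1% and 8.02%).

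**Figure D2:**
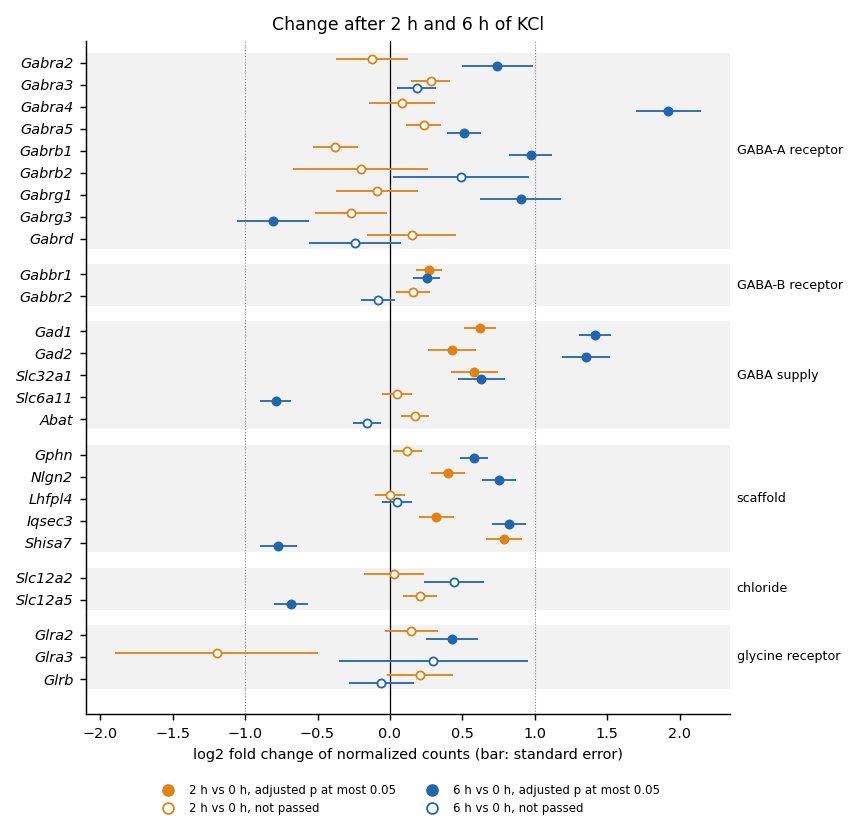
Log2 fold change of normalized counts for each of the 26 genes after 2 h (orange) and 6 h (blue) of KCl against 0 h, grouped by role, with bars for the standard error, filled points for an adjusted p no higher than 0.05 and dotted lines at 2-fold. Gabra4, Gad1 and Gad2 lie beyond the line on the right at 6 h, and Gabrg3, Slc6a11, Shisa7 and Slc12a5 are the filled points to the left of 0.

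The order of levels spanned about 3 decades. Gabbr1 had the highest level in the 0 h libraries, at 260 and 263 TPM, followed by Slc6a11 at 171 and 163, Gad1 at 159 and 156, and Gabra2 at 170.0 and 147, whose range overlapped those of the other two. Glra3 had the lowest, from 0.33 to 1.39 TPM over the 6 libraries, and Gabrd (2.11 to 3.78 TPM) and Gabrg3 (4.66 to 7.52 TPM) were the next lowest. By 6 h Gad1 had the highest level of the set, at 386 and 355 TPM, above Gabbr1 at 271 and 283 TPM.

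**Figure D3:**
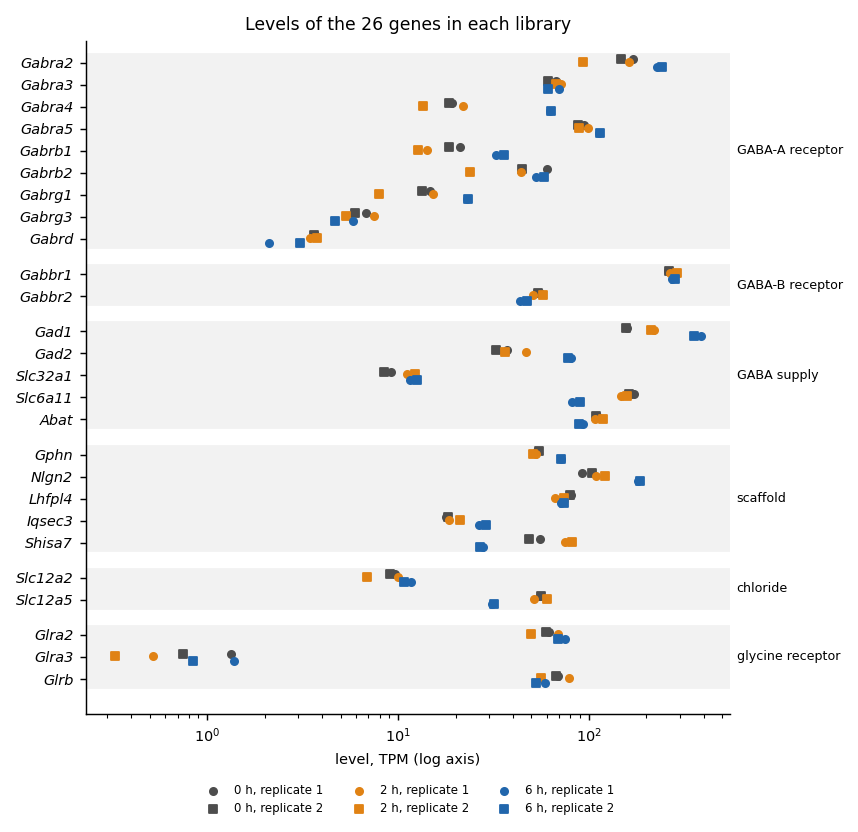
Level of each gene in each library in TPM on a log axis, with circles for replicate 1, squares for replicate 2, in grey (0 h), orange (2 h) and blue (6 h). Levels run from under 1.4 TPM for Glra3 to over 260 TPM for Gabbr1, and the blue points of Gabra4, Gad1 and Gad2 stand clear to the right of the grey ones.

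Among the GABA-A receptor subunits, 5 of 9 rose and 1 fell by 6 h, and none of the 9 passed at 2 h with all libraries. After correction for GC content, Gabra3 and Gabra5 passed as higher at 2 h, by 0.40 and 0.34 (DESeq2, adjusted p = 0.000107 and 0.000125). None of the 9 passed as lower at 2 h after that correction. The sign of Gabra2, Gabra4, Gabrb2, Gabrg1 and Gabrg3 at 2 h changed with the 2 h library left out. The leading change was in Gabra4, which encodes the alpha4 subunit, a subunit often found in receptors outside the synapse that carry a lasting current. Its normalized counts were 1042 and 993 (0 h), 1342 and 815 (2 h) and 3858 and 3860.2 (6 h). Both 6 h libraries lay above all the others, while the 2 h pair lay on either side of the 0 h pair. The log2 fold change was 1.92 (SE 0.22, adjusted p = 2.25e-16) at 6 h, a 3.79-fold increase, and 1.84 (SE 0.23, adjusted p = 6.32e-15) between 6 h and 2 h. At 2 h against 0 h it was 0.084 (SE 0.23, adjusted p = 0.854), and -0.33 and 0.38 with the first and the second 2 h library left out in turn, so that no direction can be given for the early time.

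Gabra4 is 1 of 4 subunit genes of the set that lie together on chromosome 5, in the order Gabrg1 (chr5:70751047-70842617, minus strand), Gabra2 (chr5:70957597-71095849, minus strand), Gabra4 (chr5:71569749-71658308, minus strand) and Gabrb1 (chr5:71658113-72149037, plus strand) on GRCm38. All 4 rose by 6 h. Gabra4 and Gabrb1 are transcribed away from each other, and their 5′ ends overlap on opposite strands, so reads of the overlap could be assigned to either gene if the counting did not use strand, which is not given in the sources used here. The windows from 250 bases before to 50 bases after the RefSeq start of these 2 genes are shown because the pair shares a start region and both rose. In capitals are matches to GCGNGGGCG, the motif of the activity-induced EGR factors, read on both strands, on the transcribed strand 5′ to 3′ (RefSeq, GRCm38.p6, chr5:71658259-71658558 on the minus strand and chr5:71657671-71657970 on the plus strand).
Gabra4: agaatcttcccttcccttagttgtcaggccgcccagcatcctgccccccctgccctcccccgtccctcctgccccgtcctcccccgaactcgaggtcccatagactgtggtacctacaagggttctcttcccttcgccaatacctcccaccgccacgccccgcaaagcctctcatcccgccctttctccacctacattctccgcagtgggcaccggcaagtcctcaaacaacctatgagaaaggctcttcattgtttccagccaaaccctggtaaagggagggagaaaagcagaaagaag
Gabrb1: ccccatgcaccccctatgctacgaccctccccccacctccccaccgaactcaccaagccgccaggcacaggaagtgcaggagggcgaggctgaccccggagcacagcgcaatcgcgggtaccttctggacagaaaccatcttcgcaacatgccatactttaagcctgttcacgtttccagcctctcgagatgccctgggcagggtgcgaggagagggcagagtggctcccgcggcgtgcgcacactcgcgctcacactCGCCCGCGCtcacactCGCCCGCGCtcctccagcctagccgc
The Gabrb1 window holds 2 matches near its end and the Gabra4 window none. A second window of Gabrb1, at a later start, holds no match. Over all 32851 windows of this length, 5.55% hold at least 1 match, and a match is a string of letters and not a measured binding site.

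Gabrb1 encodes the beta1 subunit, and beta subunits form part of the GABA binding site. Its normalized counts were 836 and 723 (0 h), 637 and 563 (2 h) and 1470.2 and 1589.7 (6 h). The 2 h libraries were the lowest and the 6 h libraries the highest, with no overlap between any of the groups. Its log2 fold change was 0.97 (SE 0.15, adjusted p = 6.92e-10) at 6 h against 0 h and 1.35 (SE 0.15, adjusted p = 1.45e-17) at 6 h against 2 h, and the value at 2 h against 0 h was -0.38 (SE 0.15, adjusted p = 0.0513), which did not pass. Gabra2 encodes the alpha2 subunit, and its normalized counts were 5040.4 and 4309 (0 h), 5477 and 3083 (2 h) and 7652 and 7992 (6 h). Both 6 h libraries were above the rest, but the 2 h replicates lay on either side of the 0 h replicates. It rose at 6 h by 0.74 (SE 0.25, adjusted p = 0.00788) against 0 h and by 0.87 (SE 0.25, adjusted p = 0.00159) against 2 h. After correction for GC content these values were 0.45 and 0.35, and both passed. The change against 0 h did not pass in 5 of the 15 alternative settings, which gave values of 0.45 to 0.86. Gabrg1 encodes the gamma1 subunit, found both in neurons and in glia, and had normalized counts of 937 and 838 (0 h), 1105 and 564 (2 h) and 1670.3 and 1647 (6 h). It showed the same order of libraries as Gabra2 and rose by 0.90 (SE 0.28, adjusted p = 0.00412) at 6 h against 0 h, a change that did not pass in 2 of the 15 settings and was 0.50 after correction for GC content. Its change from 2 h to 6 h was 0.99 (SE 0.28, adjusted p = 0.00154), and 0.26 (adjusted p = 0.0893) after that correction.

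**Figure D4:**
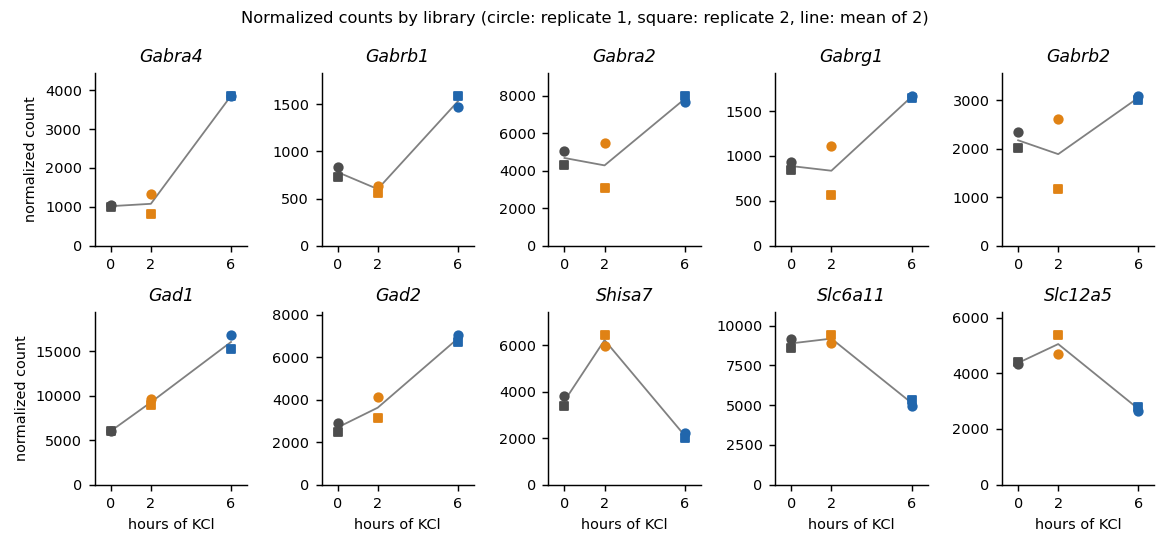
Normalized counts of 10 genes against hours of KCl, with circles for replicate 1, squares for replicate 2 and a line through the mean of the 2 libraries. The upper panels show GABA-A subunit genes whose 6 h libraries are the highest, and the lower panels show Gad1 and Gad2, which are higher at each later time, Shisa7, which peaks at 2 h, and Slc6a11 and Slc12a5, which are lowest at 6 h.

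Among the alpha subunit genes of the set, Gabra2 to Gabra5, the share of Gabra4 was larger at 6 h. Of the summed TPM of these 4 genes, Gabra4 made up 5.49% and 5.89% (0 h), 6.13% and 5.11% (2 h) and 13.2% and 13.2% (6 h). Gabra2 stayed the most abundant, with 48.6% and 46.8% (0 h), 45.9% and 35.4% (2 h) and 48.2% and 50.2% (6 h). The share of Gabra3 was 19.2% and 19.5% (0 h), 20.2% and 25.6% (2 h) and 14.7% and 12.7% (6 h), lowest in both 6 h libraries. The share of Gabra5 was 26.8% and 27.8% (0 h), 27.8% and 33.8% (2 h) and 23.9% and 23.9% (6 h), also lowest in both 6 h libraries. The summed TPM of the 4 genes was 350.1 and 314 (0 h), 355 and 263 (2 h) and 472 and 481 (6 h). For Gabra4 and for the summed TPM the 6 h libraries lay above all others, but with 2 libraries against 2 the two-sided exact permutation test cannot give a p below 0.333, which is the value both reached against 0 h.

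**Figure D5:**
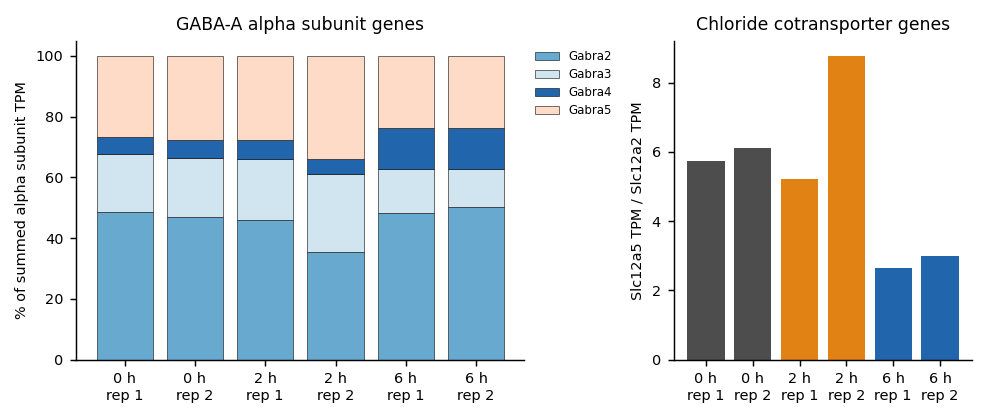
Left, share of Gabra2, Gabra3, Gabra4 and Gabra5 in the summed TPM of these 4 alpha subunit genes, in %, 1 bar per library. Right, ratio of Slc12a5 TPM to Slc12a2 TPM in each library, with bars in grey (0 h), orange (2 h) and blue (6 h). The Gabra4 share is 13.2% in both 6 h libraries against 5.11% to 6.13% in the other libraries, and the ratio is 2.64 and 2.98 at 6 h against at least 5.22 in the other libraries.

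Of the other 5 subunit genes of the GABA-A receptor, Gabra5 rose at 6 h, Gabrg3 fell, and Gabra3, Gabrb2 and Gabrd did not pass. Gabra5, whose alpha5 subunit also serves lasting currents, had normalized counts of 3124 and 2876 (0 h), 3733 and 3314 (2 h) and 4263 and 4274 (6 h), which were higher at 6 h than at 2 h and at 2 h than at 0 h without overlap. It rose by 0.51 (SE 0.12, adjusted p = 7.1e-05) at 6 h against 0 h, and the value at 2 h was 0.23 (SE 0.12, adjusted p = 0.142). An expressed gene on the opposite strand, Gm9962, overlaps its exons. Gabra3, for the alpha3 subunit common in young cortex, had values of 0.28 (SE 0.13, adjusted p = 0.111) at 2 h and 0.19 (SE 0.13, adjusted p = 0.267) at 6 h, and with 95% intervals of 0.019 to 0.55 and -0.078 to 0.45 a small change in either direction cannot be told from none at 6 h. Gabrb2, which encodes the beta2 subunit, showed the widest gap between 2 h replicates. Its normalized counts were 2344 and 2006 (0 h), 2611 and 1167 (2 h) and 3095 and 3015 (6 h). The 6 h pair lay above the 0 h pair, yet the log2 fold change of 0.49 (SE 0.47, adjusted p = 0.418) did not pass in the fit that shares 1 estimate of the spread over the 3 groups. In a fit of the 0 h and 6 h libraries alone, which was added after the data were seen, it was 0.48 (adjusted p = 2.13e-07). In TPM, which accounts for transcript length, the groups overlapped. The 0 h libraries had 60.2 and 44.8 TPM, on either side of the 6 h libraries at 52.6 and 58.4 TPM. At 2 h against 0 h the log2 fold change was -0.91 without the first 2 h library and 0.25 without the second.

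Gabrg3 was the subunit gene that fell. It encodes the gamma3 subunit, and its normalized counts were 776 and 649 (0 h), 731 and 453 (2 h) and 412 and 403 (6 h), with both 6 h libraries below all others. The change was -0.81 (SE 0.25, adjusted p = 0.00387) at 6 h against 0 h. The effective length of the gene, a mean over its transcripts weighted by abundance, was 8079 and 7761 bases (0 h), 6002 and 5308 (2 h) and 4379 and 5431 (6 h). The log2 ratio of effective length at 6 h was -0.70 (limma, adjusted p = 0.156), which did not pass. With effective length as an offset the log2 fold change of Gabrg3 was -0.13 (adjusted p = 0.695), which did not pass. In TPM, which also accounts for length, the 6 h libraries had 5.79 and 4.66, both below the 0 h libraries at 6.77 and 5.94, while the 2 h libraries, at 7.52 and 5.36, overlapped them. Gabrd, for the delta subunit that partners alpha4 outside the synapse, was low throughout, with normalized counts from 61.0 to 97.2, and had log2 fold changes of 0.15 (SE 0.31, adjusted p = 0.807) at 2 h and -0.24 (SE 0.32, adjusted p = 0.575) at 6 h. The interval at 6 h of -0.86 to 0.38 leaves a moderate change in either direction undetectable at this depth.

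Of the 2 GABA-B receptor genes, Gabbr1 rose at both times and Gabbr2 passed at neither. The receptor works only as a pair of the product of Gabbr1, which binds GABA, and that of Gabbr2, which couples to G proteins. Gabbr1 had normalized counts of 12781 and 12647 (0 h), 14892 and 15776 (2 h) and 15003 and 15311 (6 h), and all 4 libraries after KCl were above both 0 h libraries. It rose by 0.27 (SE 0.091, adjusted p = 0.0144) at 2 h and 0.25 (SE 0.091, adjusted p = 0.0141) at 6 h. These small changes did not pass in 5 of the 14 and 5 of the 15 alternative settings. Gabbr2 passed in no comparison, with log2 fold changes of 0.16 (SE 0.12, adjusted p = 0.35) at 2 h and -0.084 (SE 0.12, adjusted p = 0.594) at 6 h. The ratio of Gabbr1 TPM to Gabbr2 TPM was 4.67 and 4.87 (0 h), 5.21 and 4.98 (2 h) and 6.20 and 5.97 (6 h). It was highest in the 6 h libraries and lowest in the 0 h libraries with no overlap, which with 2 libraries against 2 gives an exact permutation p of 0.333, the smallest possible.

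The genes of both GABA-synthesizing enzymes rose at 2 h and at 6 h. Gad1 and Gad2 encode glutamate decarboxylases, the first of which supplies most GABA of the cell body and the second mainly that of nerve terminals. Gad1 had normalized counts of 6059 and 5971 (0 h), 9584 and 8918 (2 h) and 16868 and 15201 (6 h). Every 2 h library was above both 0 h libraries, and every 6 h library above both 2 h libraries. The log2 fold change was 0.62 (SE 0.11, adjusted p = 2.12e-07) at 2 h and 1.41 (SE 0.11, adjusted p = 1.29e-36) at 6 h, a 2.67-fold increase. Gad2 had normalized counts of 2887 and 2498 (0 h), 4120.2 and 3129 (2 h) and 7073 and 6704 (6 h), again without overlap between the groups. Its log2 fold change was 0.43 (SE 0.17, adjusted p = 0.0414) at 2 h and 1.36 (SE 0.17, adjusted p = 9.37e-15) at 6 h, a 2.56-fold increase. The 2 h value did not pass in 9 of the 14 alternative settings, which ran from 0.21 to 0.60. The ratio of Gad1 TPM to Gad2 TPM overlapped between all groups, from 4.25 to 5.84. Slc32a1, which encodes the transporter that loads GABA and glycine into vesicles, had normalized counts of 326 and 296 (0 h), 448 and 483 (2 h) and 467 and 496 (6 h). Unlike the decarboxylase genes, its 6 h libraries overlapped the 2 h libraries. It rose by 0.58 (SE 0.16, adjusted p = 0.00221) at 2 h and by 0.63 (SE 0.16, adjusted p = 0.000421) at 6 h, and the change between 6 h and 2 h was 0.048 (SE 0.16, adjusted p = 0.842). Its rise did not pass in 4 of the 14 alternative settings at 2 h and in 3 of the 15 at 6 h.

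The promoter windows of both decarboxylase genes are shown because these genes, with Gabra4, had the strongest increases (RefSeq, GRCm38.p6, chr2:70561879-70562178 and chr2:22622077-22622376, both on the plus strand). Capitals mark a match to the EGR motif in Gad1 and, in Gad2, to TGACG, the core of the cyclic AMP response element that CREB binds, both lying on the opposite strand.
Gad1: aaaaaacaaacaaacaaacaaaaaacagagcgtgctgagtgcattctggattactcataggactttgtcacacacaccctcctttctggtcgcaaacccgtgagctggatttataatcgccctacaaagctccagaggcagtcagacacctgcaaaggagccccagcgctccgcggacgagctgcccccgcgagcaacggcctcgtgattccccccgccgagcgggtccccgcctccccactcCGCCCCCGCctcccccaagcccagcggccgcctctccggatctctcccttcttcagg
Gad2: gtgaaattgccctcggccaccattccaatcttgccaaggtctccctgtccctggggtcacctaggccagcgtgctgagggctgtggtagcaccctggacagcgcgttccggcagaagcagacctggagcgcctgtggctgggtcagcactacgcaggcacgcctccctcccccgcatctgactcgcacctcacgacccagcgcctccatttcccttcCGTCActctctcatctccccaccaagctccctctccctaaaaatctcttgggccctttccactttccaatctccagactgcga
The short TGACG occurs in 20.8% of all windows, and the full element TGACGTCA, which contains it, in 1.79% of all windows and in none of the windows of these genes.

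Gad1, Gad2 and Slc32a1 are also markers of interneurons, the cells that release GABA. In bulk RNA, more or fewer cells of a type and more or less RNA per cell cannot be told apart. Of 18 other interneuron markers, 8 rose and 0 fell at 2 h and 4 rose and 0 fell at 6 h against 0 h, with median log2 fold changes of 0.42 and 0.34. Of all genes tested, 12.3% and 23.7% were higher and 14.2% and 21.7% lower. From 2 h to 6 h, where Gad1 and Gad2 rose by 0.79 and 0.93, 0 of these 18 rose and 5 fell, with a median of -0.16. In that comparison 24.1% of all genes tested were higher and 21.2% lower. At an unadjusted p below 0.05 (DESeq2), 0 of them were lower at 2 h and 1 at 6 h against 0 h, and 0 were higher at 6 h than at 2 h. Their summed level was 741 and 798 TPM (0 h), 853 and 1009 TPM (2 h) and 870 and 909 TPM (6 h), and none was at 0 in every library. Sst, the peptide of a major interneuron class, rose by 1.05 (SE 0.21, adjusted p = 2.84e-06) at 6 h, while Lhx6, a factor that marks interneurons from the medial ganglionic eminence, had a value of -0.10 (SE 0.17, adjusted p = 0.671). Dlx5 and Sp9, factors of the interneuron lineage, rose by 1.62 and 1.43 at 2 h and had values of 0.46 and 0.42 at 6 h that did not pass. The part of these markers in the changes of Gad1, Gad2 and Slc32a1 was not tested.

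Of the 2 genes of the set that clear GABA, the uptake gene Slc6a11 fell at 6 h and the breakdown gene Abat did not pass against 0 h. Slc6a11 encodes a GABA transporter found mainly on astrocytes. Its normalized counts were 9157 and 8597 (0 h), 8922 and 9431 (2 h) and 4929 and 5338 (6 h), with the 6 h pair far below the other 4 libraries. It fell late. Its value at 2 h was 0.048 (SE 0.11, adjusted p = 0.822), and at 6 h it was -0.79 (SE 0.11, adjusted p = 1.52e-12) on the log2 scale. Of 11 other markers of astrocytes and radial glia, 6 fell and 1 rose at 6 h, where 21.7% of all genes tested were lower and 23.7% higher, with a median log2 fold change of -0.32, and their summed level was 4912 and 5013 TPM (0 h), 4629 and 4131 TPM (2 h) and 3996 and 3840 TPM (6 h). Most of that sum was Fabp7, at 3861 and 3869 TPM (0 h), 3579 and 2988 TPM (2 h) and 2858 and 2709 TPM (6 h). Gfap, the main astrocyte filament, fell by 0.63 (SE 0.24, adjusted p = 0.0216), Aqp4, the astrocyte water channel, had -0.15 (SE 0.21, adjusted p = 0.599), and Vim, also a filament gene, was the marker that rose, by 1.42 (SE 0.14, adjusted p = 2.89e-21). The part of these markers in the fall of Slc6a11 was not tested. Abat encodes GABA transaminase, which breaks GABA down, and had normalized counts of 6312 and 6175 (0 h), 6824 and 7281 (2 h) and 5687 and 5502 (6 h). The 2 h libraries were the highest and the 6 h libraries the lowest, without overlap. Its change from 2 h to 6 h, -0.33 (SE 0.097, adjusted p = 0.00198), passed, and its values against 0 h, 0.18 (SE 0.097, adjusted p = 0.186) at 2 h and -0.16 (SE 0.097, adjusted p = 0.181) at 6 h, did not.

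Of the 5 scaffold, adhesion and auxiliary genes, 3 rose by 6 h. Gphn encodes gephyrin, the scaffold that holds GABA-A and glycine receptors at the synapse, and its normalized counts were 2272 and 2299 (0 h), 2538 and 2426 (2 h) and 3436 and 3402 (6 h). It rose by 0.58 (SE 0.099, adjusted p = 3e-08) at 6 h, with the 6 h pair above all other libraries, and its value at 2 h was 0.12 (SE 0.099, adjusted p = 0.436). Nlgn2 encodes neuroligin-2, the adhesion protein of inhibitory synapses, and had counts of 4851 and 5063 (0 h), 6116 and 6946 (2 h) and 8061 and 8665 (6 h). It rose by 0.40 (SE 0.12, adjusted p = 0.00413) at 2 h and 0.75 (SE 0.12, adjusted p = 1.14e-09) at 6 h, with each later time above the earlier one. The rise of Nlgn2 at 2 h did not pass in 3 of the 14 alternative settings, and that from 2 h to 6 h in 5 of 14. Iqsec3 encodes a gephyrin-binding exchange factor for small GTPases, and had counts of 1624 and 1631 (0 h), 1908 and 2157 (2 h) and 2800.3 and 2950.3 (6 h). It rose by 0.32 (SE 0.12, adjusted p = 0.0314) at 2 h and 0.82 (SE 0.12, adjusted p = 6.22e-11) at 6 h in the same order of libraries. The rise of Iqsec3 at 2 h did not pass in 7 of the 14 alternative settings. Its expected count was not a whole number in 3 libraries, a sign that some of its reads were shared with other genes. Lhfpl4, whose product ties GABA-A receptors to neuroligin-2, had counts of 5105 and 4958 (0 h), 4802 and 5266 (2 h) and 5164 and 5256 (6 h), and its log2 fold change of 0.050 (SE 0.10, adjusted p = 0.732) at 6 h had a 95% interval of -0.15 to 0.25.

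Shisa7 was the gene whose direction changed between the times. It encodes an auxiliary subunit of GABA-A receptors that affects their trafficking and kinetics. Its normalized counts were 3834 and 3383 (0 h), 5993 and 6469 (2 h) and 2214 and 2012 (6 h). Both 2 h libraries were the highest and both 6 h libraries the lowest, with the 0 h libraries between them. It rose by 0.79 (SE 0.13, adjusted p = 7.76e-09) at 2 h, lay below the 0 h level after 6 h by 0.77 (SE 0.13, adjusted p = 1e-08), and fell 2.95-fold from 2 h to 6 h, by 1.56 (SE 0.13, adjusted p = 1.26e-32). All 3 changes passed in every alternative setting tried.

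Of the 2 chloride cotransporter genes, Slc12a5 fell at 6 h and Slc12a2 did not pass. Slc12a5 encodes KCC2, which carries chloride out of neurons and makes GABA inhibitory in mature cells, and Slc12a2 encodes NKCC1, which brings chloride in. Slc12a5 had normalized counts of 4345 and 4399.9 (0 h), 4709 and 5391 (2 h) and 2647 and 2793 (6 h), with both 6 h libraries well below the other 4. It fell by 0.68 (SE 0.12, adjusted p = 5.32e-08) at 6 h against 0 h and by 0.89 (SE 0.12, adjusted p = 7.66e-13) against 2 h, and its value at 2 h was 0.21 (SE 0.12, adjusted p = 0.2). Slc12a2 had normalized counts of 853 and 797 (0 h), 999 and 680.3 (2 h) and 1181 and 1060.5 (6 h). The 6 h pair was above the others, but the log2 fold change of 0.44 (SE 0.21, adjusted p = 0.0682) did not pass. In the added fit of the 0 h and 6 h libraries alone its adjusted p was 0.000513. The ratio of Slc12a5 TPM to Slc12a2 TPM was 5.73 and 6.12 (0 h), 5.22 and 8.77 (2 h) and 2.64 and 2.98 (6 h). Both 6 h ratios were below all others, and the 2 h ratios differed the most between replicates, with an exact permutation p of 0.333 for 6 h against 0 h, the smallest the design allows. The first RefSeq window of Slc12a5 is shown because it is the only window of the set with a match to TGANTCA, the AP-1 motif that Fos and Jun proteins bind, in capitals (RefSeq, GRCm38.p6, chr2:164960596-164960895, plus strand).
Slc12a5: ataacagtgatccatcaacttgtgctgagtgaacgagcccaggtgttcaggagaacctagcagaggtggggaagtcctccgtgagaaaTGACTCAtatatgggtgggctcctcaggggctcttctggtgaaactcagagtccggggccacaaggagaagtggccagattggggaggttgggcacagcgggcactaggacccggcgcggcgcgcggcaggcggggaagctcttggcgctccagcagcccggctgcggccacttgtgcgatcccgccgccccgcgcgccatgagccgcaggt
The AP-1 motif occurs in 7.81% of all windows. A second window of Slc12a5, at a later start, has no match.

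Of the 3 glycine receptor genes, Glra2 rose at 6 h and the other two did not pass. Glra2 encodes the alpha2 subunit, the main alpha subunit of the glycine receptor before birth, and had normalized counts of 2493 and 2392 (0 h), 3159 and 2251 (2 h) and 3457 and 3120.2 (6 h). The 6 h libraries lay above the 0 h libraries but overlapped the 2 h libraries. It rose by 0.43 (SE 0.18, adjusted p = 0.0416) at 6 h, a change that did not pass in 9 of the 15 alternative settings. Glrb, for the beta subunit that binds gephyrin, had counts of 2100.3 and 2061 (0 h), 2969.9 and 1832 (2 h) and 2139 and 1858 (6 h) and passed in no comparison, with -0.058 (SE 0.23, adjusted p = 0.865) at 6 h. Glra3, for the alpha3 subunit, had normalized counts of only 32.0 and 16.9 (0 h), 13.0 and 8.27 (2 h) and 38.5 and 21.5 (6 h). Its 2 h libraries were the lowest, but the log2 fold changes of -1.20 (SE 0.70, adjusted p = 0.222) at 2 h and 0.30 (SE 0.66, adjusted p = 0.749) at 6 h had intervals of -2.57 to 0.18 and -0.98 to 1.59. At this depth a large fall at 2 h and a large change in either direction at 6 h were not detectable. Glra1, the alpha subunit of the adult spinal cord, was at most 0.18 TPM.

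By time, 4 of the 7 genes that had risen at 2 h were higher still at 6 h by the test of 6 h against 2 h (Gad1, Gad2, Nlgn2 and Iqsec3), and Shisa7 fell below its 0 h level. Gabbr1 and Slc32a1, the other two, did not pass between 2 h and 6 h. Gabra2, Gabra4, Gabra5, Gabrb1, Gabrg1 and Gphn passed at 6 h against both other times and not at 2 h, and Slc6a11 and Slc12a5 fell in the same way. The 2 h and 6 h values share the 0 h libraries, so their likeness is not evidence of its own. Of the 17 genes that passed at 6 h against 0 h, 10 did so in every one of 15 alternative settings (Gabra4, Gabrb1, Gad1, Gad2, Gphn, Iqsec3, Nlgn2, Shisa7, Slc12a5 and Slc6a11), and of the 7 at 2 h only Gad1 and Shisa7 did so in every one of 14.

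Effective length was read as a second measure that follows the mix of transcripts. Of the 24 genes of the set with enough counts, 0 passed in each comparison with an adjusted p up to 0.05 and a log2 ratio of at least 0.2 (limma), against 0.0356%, 0.525% and 0.116% of the 11233 genes tested at 2 h against 0 h, 6 h against 0 h and 6 h against 2 h. At an unadjusted p below 0.05 there were 1, 4 and 2. At 6 h against 0 h Nlgn2 had a log2 ratio of -0.34 (adjusted p = 0.127), and with effective length as an offset its log2 fold change exceeded 2-fold.

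Genes that work with the 26 were read from lists named for their function, and their counts stand beside the 23.7% of all genes tested that were higher and the 21.7% that were lower at 6 h (12.3% and 14.2% at 2 h). Of 8 other receptor subunit genes tested, 3 rose and 0 fell at 6 h (0 lower also at an unadjusted p below 0.05). Of 16 genes for receptor trafficking and GABA-B auxiliary proteins, 8 rose and 3 fell at 6 h. Plcl1, whose product binds GABA-A receptors and phosphatases, rose by 1.92 (SE 0.14, adjusted p = 7.64e-39), and Trak2, a motor adaptor, by 1.19 (SE 0.11, adjusted p = 8.64e-28). Kctd16, for an auxiliary subunit of GABA-B receptors, fell by 1.66 (SE 0.30, adjusted p = 6.08e-07) at 2 h and had -0.60 (SE 0.29, adjusted p = 0.0775) at 6 h, while its relative Kctd8 rose by 1.45 (SE 0.28, adjusted p = 1.2e-06) at 6 h.

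Of 14 other organizers of inhibitory synapses, 0 rose and 3 fell at 2 h (2 were higher at an unadjusted p below 0.05), and 7 rose and 2 fell at 6 h. Slitrk3, an adhesion protein of inhibitory synapses, had normalized counts of 1505 and 1575 (0 h), 657 and 665 (2 h) and 1738 and 1752 (6 h), and Fam196b, also called Insyn2b, had 254 and 259 (0 h), 81.9 and 84.8 (2 h) and 378 and 378 (6 h). In both genes the 2 h libraries were the lowest without overlap. Slitrk3 fell by 1.22 (SE 0.12, adjusted p = 3.3e-24) at 2 h and rose by 1.40 (SE 0.12, adjusted p = 9.24e-32) from 2 h to 6 h. Nlgn3, for the neuroligin found at both excitatory and inhibitory synapses, fell by 1.38 (SE 0.12, adjusted p = 1.97e-29) at 6 h, whereas Nlgn2 rose. Of 14 tested genes for the supply of GABA and glycine, 4 rose and 3 fell at 6 h, near the shares of all genes. Slc38a2, a glutamine transporter, rose by 2.09 (SE 0.11, adjusted p = 2.69e-76) at 2 h and 2.21 (SE 0.11, adjusted p = 1.83e-85) at 6 h. Of 14 tested chloride regulators, 6 rose and 3 fell at 6 h. Clcn3, an endosomal chloride exchanger, rose by 1.08 (SE 0.16, adjusted p = 6.22e-11), and Slc4a8, a bicarbonate transporter linked to chloride, fell by 1.10 (SE 0.11, adjusted p = 1.79e-22).

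Promoter windows were held for 23 of the 26 genes, 28 windows in all. The EGR motif matched in 7 of the 28, those of Gabrb1, Gabrb2, Gad1, Glra3, Gphn, Iqsec3 and Lhfpl4, and in 5.55% of all windows. TGACG matched in 5 of the 28, those of Gabrb2, Gad2, Glrb, Iqsec3 and Nlgn2, and in 20.8% of all windows. A string looser than the MEF2 motif, CTA and TAG with 4 bases of any kind between them, was also searched. It matched in 3 windows, those of Gabrb2, Glra2 and Slc32a1, and in 3.69% of all windows. The MEF2 motif has only A or T at these 4 bases, which holds for the match of Gabrb2 (CTATAAATAG) and not for those of Glra2 and Slc32a1. Genes with an EGR match included ones that rose at 6 h (Gabrb1, Gad1, Gphn and Iqsec3) and ones that did not pass (Gabrb2, Glra3 and Lhfpl4), and Gabra4, with the strongest rise, matched none of the motifs searched.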

How the data were processed

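Poly(A)-selected RNA of 6 samples was sequenced as stranded paired-end libraries. The authors trimmed the reads, mapped them to mm10 and estimated expression with RSEM (RSEM 1.3.0 and Bowtie2 2.2.9 per the submitters' processing notes). The deposited expected counts are RSEM estimates that need not be whole and are not normalized, and the deposited TPM values are scaled for transcript length and library. The effective lengths used here, in bases, are from the same deposited tables, and the FPKM column was not used. The annotation release and the strand setting of RSEM are not given in the sources used here.

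Groups and replicate numbers came from the sample titles. The study calls the replicates biological, and the labels name no separate cultures, so p-values measure the spread between these libraries. Symbols and positions were taken from GENCODE M21 (GRCm38), which named 42462 of 43432 genes, and promoter windows from RefSeq GRCm38.p6. Expected counts were rounded, and the 22515 genes with a count were fitted with DESeq2 1.42.0 (R 4.3.3; Wald test, 1 fit of 6 libraries, unshrunken, Benjamini-Hochberg over genes kept by independent filtering). The study also used DESeq2 on raw counts, and these settings are not given in the sources used here. A gene passed with an adjusted p no higher than 0.05, and a change over 2-fold is an absolute log2 fold change above 1. Alternatives used edgeR 4.0.16, other size factors, a minimum mean count of 10, length offsets, GC correction, a replicate block, and each library left out. Effective lengths were tested with limma 3.58.1 where the mean count reached 100. The DESeq2 and limma steps were tested on simulated data, and the edgeR step was not. All 26 genes are named. From each of 13 other lists, up to 4 genes with the largest change among those past both limits and over 50 in mean normalized count could be named, beside checks of cell type, and some of these are not reported here. The members and lists were chosen with earlier results of these data known. Counts carry no molecular identifiers, so depth covers counting error only.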

Additional observations from a re-analysis of the deposited data

Results flagged for a closer look

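For 14 of the 26 genes the effect of 6 h of KCl differed from that of 2 h by the test of the difference itself, which is the DESeq2 comparison of 6 h with 2 h (adjusted p of at most 0.05, where 24.1% of genes tested were higher and 21.2% lower). The log2 difference was 1.84 for Gabra4, 1.35 for Gabrb1, 0.99 for Gabrg1, 0.93 for Gad2, 0.87 for Gabra2, 0.79 for Gad1, 0.50 for Iqsec3, 0.46 for Gphn, 0.36 for Nlgn2 and 0.28 for Gabra5, all higher at 6 h. It was -1.56 for Shisa7, -0.89 for Slc12a5, -0.84 for Slc6a11 and -0.33 for Abat, which were lower at 6 h. In all 14 genes both 6 h libraries lay on the same side of both 2 h libraries. Gabra5 is the least certain, since it did not pass in 11 of the 14 alternative settings. The difference between the 2 h replicates that moved with GC content, given with the report, touches Gabra2, Gabra4 and Gabrg1 in particular. With GC correction their log2 differences were 0.35, 1.70 and 0.26, of which that of Gabrg1 did not pass. Without the first 2 h library the log2 differences were 1.35, 2.25 and 1.56, and without the second 0.53, 1.54 and 0.60.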

How the results depend on the processing

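The labels do not say whether same-numbered libraries belong together, and 2 libraries per group cannot decide it. The deviations of same-numbered libraries from their group means correlated at 0.281 (0 h and 2 h), -0.002 (0 h and 6 h) and 0.152 (2 h and 6 h) over 12290 genes. With a replicate block 7, 18 and 16 of the 26 genes passed at 2 h against 0 h, 6 h against 0 h and 6 h against 2 h, beside 7, 17 and 14 without it. Counts that moved most were those at 2 h against 0 h, where 3 genes passed with library totals as size factors, 14 with GC correction and 12 with the block and GC correction together, and with 1 library left out from 2 to 15, the highest without 2 h replicate 1. At 6 h against 0 h, leaving out 1 library gave 11 to 20 genes past the threshold, the lowest without 0 h replicate 2, and at 6 h against 2 h 10 to 18. Genes over 2-fold at 6 h against 0 h numbered 6 with library totals, where Gabrg3, Shisa7 and Slc6a11 also fell more than 2-fold, and 3 to 4 with a library left out. At 6 h against 2 h they numbered 3 to 7, the highest without 2 h replicate 1. Library totals moved the median of all genes tested by -0.169, -0.247 and -0.079 in the 3 comparisons, and the genes of the set that passed were then 2 higher and 1 lower, 9 and 6, and 8 and 6, while GC correction gave 8 higher and 7 lower at 6 h against 2 h. The median of the 26 genes became -0.010 and 0.19 at 2 h and 6 h against 0 h with library totals, 0.33 at 6 h against 0 h with effective length offsets, 0.32 at 6 h against 0 h and 0.11 at 6 h against 2 h (0.28 otherwise) with GC correction, and 0.16 at 6 h against 2 h without 2 h replicate 2. A fit of the 0 h and 6 h libraries alone, added after the data were seen, gave 20 genes, among them Abat (-0.17, adjusted p = 0.0162).

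The sign of a log2 fold change turned only for genes that had not passed. With library totals it became, at 2 h against 0 h, -0.089 for Gabra4, -0.016 for Gabrd, -0.0043 for Gabbr2, -0.12 for Slc6a11, -0.048 for Gphn, -0.16 for Lhfpl4, -0.15 for Slc12a2 and -0.024 for Glra2, at 6 h against 0 h -0.060 for Gabra3 and -0.20 for Lhfpl4, and at 6 h against 2 h -0.032 for Slc32a1 and -0.031 for Lhfpl4. With GC correction it became 0.099 for Gabra2 and 0.24 for Gabrg1 at 2 h against 0 h, 0.048 for Gabbr2 and -0.039 for Glra3 at 6 h against 0 h, and 0.093 for Gabbr1 and -0.11 for Glra2 at 6 h against 2 h. With the replicate block and GC correction the same genes had 0.10, 0.25, 0.048, -0.048, 0.094 and -0.11. With effective length offsets it was 0.19 for Gabrg3 and -0.010 for Lhfpl4 at 2 h against 0 h, and Lhfpl4 was -0.0025 with edgeR, -0.0025 with TMM factors and -0.00033 with the block. With 1 library left out, values at 2 h against 0 h ran from -0.61 to 0.21 for Gabra2, -0.33 to 0.38 for Gabra4, -0.91 to 0.25 for Gabrb2, -0.66 to 0.30 for Gabrg1, -0.66 to 0.020 for Gabrg3, -0.085 to 0.055 for Lhfpl4, -0.010 to 0.10 for Slc6a11, -0.29 to 0.26 for Slc12a2, -0.13 to 0.35 for Glra2 and -0.19 to 0.50 for Glrb. At 6 h against 0 h they ran from -0.18 to 0.83 for Glra3 and -0.17 to 0.040 for Glrb, and at 6 h against 2 h from -0.050 to 0.039 for Gabbr1, -0.19 to 0.0053 for Gabra3, -0.0081 to 0.13 for Lhfpl4 and -0.56 to 0.13 for Glrb. The causes were not tested. Glra3, with normalized counts of 8.27 to 38.5, is limited by depth.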

Other observations

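Genes near the subunit genes of chromosome 5 were read after the values of those 4 genes had been seen. Within 1 Mb beyond Gabrb1, 5 other genes had a mean normalized count of at least 50. Commd8, the nearest, fell at 6 h against 0 h (log2 fold change of -1.02, DESeq2 adjusted p = 1.54e-09). Nfxl1 fell at 2 h (-1.43, adjusted p = 2e-14) and had 0.34 at 6 h (adjusted p = 0.0774). Tec, Slain2 and Fryl rose at 6 h by 1.22, 0.87 and 0.52. The direction at 6 h was thus not shared by all genes of the interval.

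Other cell markers were read beside the 23.7% of all genes tested that were higher at 6 h and the 21.7% that were lower. Of 9 markers of excitatory cortical neurons, 4 rose and 1 fell at 6 h, with Fezf2, a factor of deep-layer neurons, at 1.45 (SE 0.14, adjusted p = 3.53e-22) and Slc17a7, the vesicular glutamate transporter of the cortex, at -0.44 (SE 0.15, adjusted p = 0.00749). Of 8 pan-neuronal markers, 5 rose and 1 fell, the latter being Tubb3, neuronal tubulin, with -1.01 (SE 0.14, adjusted p = 1.37e-12). Of 7 oligodendrocyte lineage markers, 2 rose and 1 fell at 6 h, and Sox10 fell at 2 h, with -2.61 (SE 0.33, adjusted p = 4.87e-14). Of 8 markers of progenitors and dividing cells, 2 rose and 2 fell at 6 h, with Nes at 1.08 (SE 0.14, adjusted p = 3.54e-13) and Hes5 at -1.81 (SE 0.38, adjusted p = 9.13e-06). Of the vascular markers 7 were tested and 3 rose, at a summed level of 13.6 to 19.1 TPM over the 6 libraries, and 1 of 8 microglial markers rose.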
